A study of Mus musculus with 3 samples.

Results

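Accessible regions near 42 keratin, desmosome and epidermal barrier genes were followed in 3 mouse ATAC-seq libraries. The members are 13 keratins, 5 desmosomal cadherins, 8 desmosomal plaque genes, 6 genes of other junctions and adhesion, 7 cornified envelope and barrier genes, and 3 epithelial genes of signalling and splicing. A peak summit belonged to a member when the nearest end of any protein-coding gene, within 50 kb, was that of the member. By this rule 144 of 51392 regions that could be assigned to a gene, out of 67219 regions in all, lay near 37 of the 42 members. Krt6b, Dsg1a, Tgm1, Ivl and Sprr1b had no region in any library.

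ATAC-seq uses a transposase that inserts sequencing adapters into open DNA, so that peaks mark accessible chromatin. The cells were labelled mesenchymal stem cells, and the study concerned heterotopic ossification, in which bone forms in soft tissue after injury. The groups were immobilized at day 7 after injury, non-immobilized at the same day, and day 0, before injury. The labels leave out strain, genotype, age, number of mice, tissue of origin, the way of immobilizing and the way the cells were isolated. Each group was 1 library, so differences have no replicate check and no test was run. Shares carry exact 95% binomial intervals by the Clopper-Pearson method, which cover counting error only.

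Keratins are the intermediate filament proteins of epithelial cells, and desmosomes are the cell junctions that anchor keratin filaments at the membrane. Keratinocytes of the epidermis express them in layers: Krt5 and Krt14 in the basal layer, Krt1 and Krt10 above it, and involucrin, small proline-rich proteins and transglutaminases in the outer layers, where the cornified envelope is built. Mesenchymal cells build vimentin filaments and generally lack desmosomes.

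The libraries held 143818952 read pairs in the immobilized, 173029378 in the non-immobilized and 176119937 in the day 0 library. The deposited peak lists had 67404, 47912 and 51722 summits in the same order, so each list was reduced to its 47912 best-scoring summits before regions were counted. Summits were widened by 250 bp on each side and merged over the libraries, and a region counted as called in a library that had a summit in it. Ranks give a region's place within 1 library's reduced list, with 0% for the best summit. Coordinates are those of mm10. All 18 mesenchymal markers had a region in the immobilized library and at day 0, and 16 did in the non-immobilized library, where Ly6a and Lum had none. Of the 15118 genes with a region in any library, 94.6%, 93.6% and 92.8% had one in the immobilized, non-immobilized and day 0 libraries. The mesenchymal marker counts lay near these shares. The summed regions of these markers were 73 in the immobilized, 81 in the non-immobilized and 88 in the day 0 library.

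Regions near the epidermal genes were called mostly in the immobilized library. Of the 144 regions, 129 were called there, against 60 in the non-immobilized library and 40 at day 0, while regions near all genes numbered 37433, 36878 and 36171 in the same libraries. The immobilized library alone held 71 of the 144, or 49.3% (interval 40.9 to 57.8), whereas 11.1% of all assigned regions were called in that library alone. Another 29 regions were called in both day 7 libraries and not at day 0, which is 20.1%, against 8.3% of all regions. Only 25 were called in all 3 libraries, or 17.4%, against 48.5% of all regions. The non-immobilized library alone held 4 member regions (2.78%, against 10.2% of all regions) and day 0 alone 9 (6.25%, against 12.2%). A further 4 were shared by the immobilized library and day 0 (2.78%, against 4.98% of all regions), and 2 by the non-immobilized library and day 0 (1.39%, against 4.78%).

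**Figure D1:**
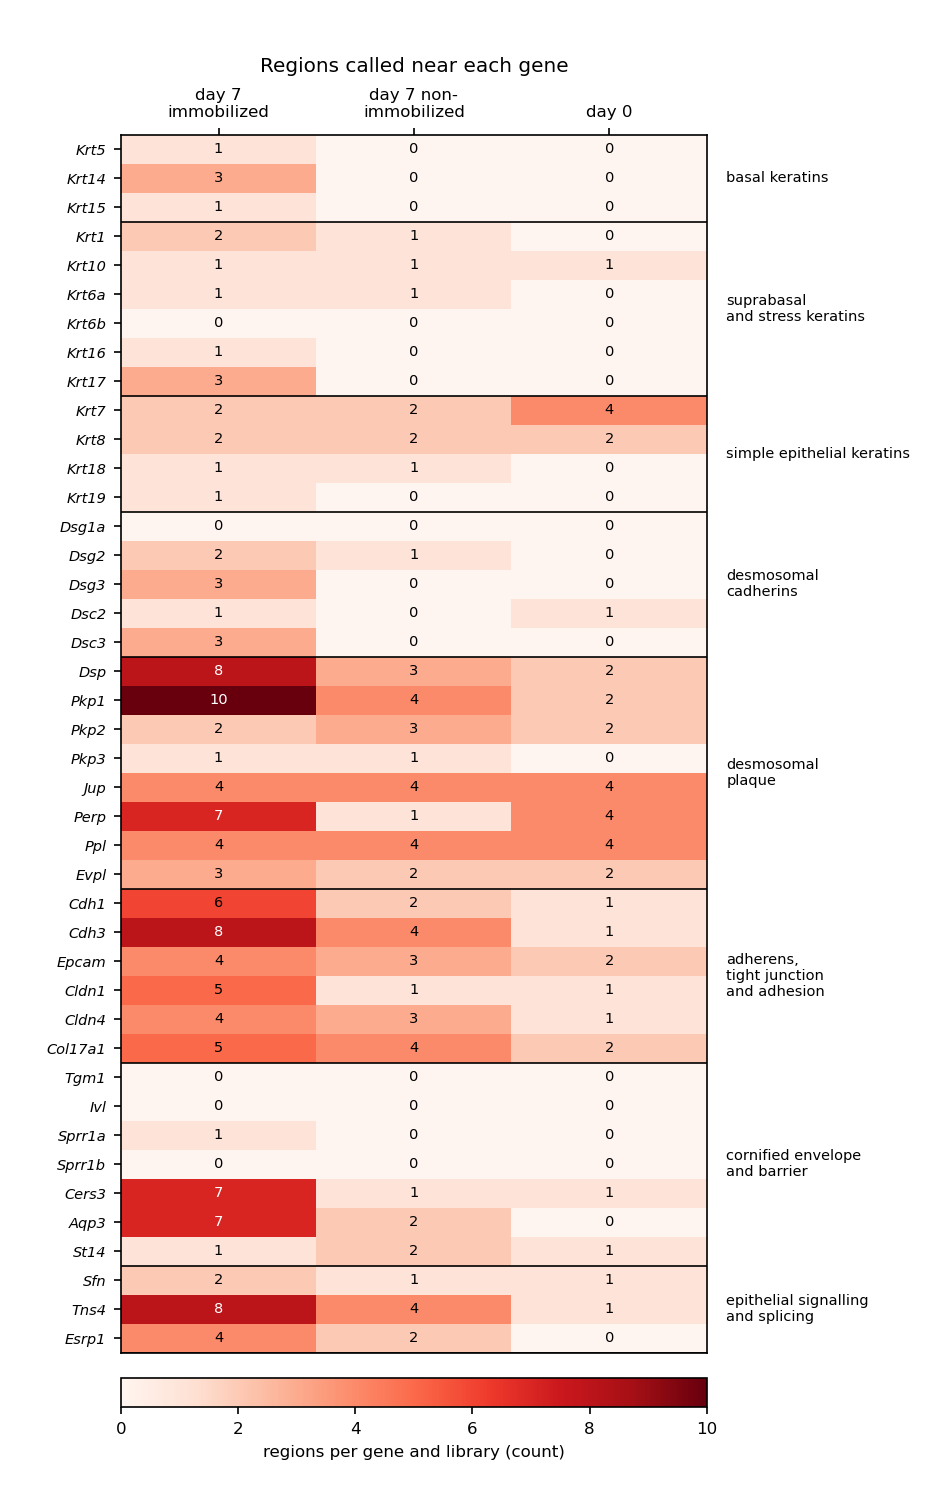
Number of accessible regions near each of the 42 genes (rows, grouped by role) in the day 7 immobilized, day 7 non-immobilized and day 0 libraries (columns). The immobilized column is filled for 37 genes, the non-immobilized column for 27 and the day 0 column for 21.

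The members had a region in the immobilized library in 37 cases, in the non-immobilized library in 27 and at day 0 in 21, against 94.6%, 93.6% and 92.8% of the 15118 genes with a region in any library. For 9 members every region was called in the immobilized library and in neither other: Krt5, Krt14, Krt15, Krt16, Krt17, Krt19, Dsg3, Dsc3 and Sprr1a. This pattern held for 2.59% of all genes with a region. In 12 members the count was highest in the immobilized library, lower in the non-immobilized and lowest at day 0, an order found in 3.76% of genes. At the other end, the regions of Krt10, Jup and Ppl were called in all 3 libraries without exception, as were those of 32.8% of genes.

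Promoter windows of 19 members, from RefSeq on GRCm38.p6 (250 bases before to 50 after the start site), show where some of these regions lie. A summit fell in or within 250 bp of the window of 9 members in the immobilized library, 3 in the non-immobilized library and 3 at day 0, against 56.5%, 56.7% and 55.7% of genes with a promoter window. The 3 were the same genes in each library: Jup, Dsp and Cldn1. The windows of Sprr1a, Cldn4, Krt5, Aqp3, Sfn and Cers3 had such a summit in the immobilized library only, a pattern of 1.45% of genes. Of those, 4 are printed, and Jup is set beside them as a promoter called in every library. Capitals mark matches to TGANTCA, the AP-1 motif, and to TATAAA, the TATA box, on either strand, and the sequences read 5′ to 3′ in the direction of the gene:
Sprr1a promoter, chr3:92485832-92486131, minus strand: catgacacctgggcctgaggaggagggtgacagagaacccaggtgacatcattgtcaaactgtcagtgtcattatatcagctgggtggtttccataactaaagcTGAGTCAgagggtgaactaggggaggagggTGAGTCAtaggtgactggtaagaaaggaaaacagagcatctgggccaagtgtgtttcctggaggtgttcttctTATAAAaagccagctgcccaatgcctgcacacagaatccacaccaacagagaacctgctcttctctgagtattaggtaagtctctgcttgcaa
Cldn4 promoter, chr5:134946885-134947184, minus strand: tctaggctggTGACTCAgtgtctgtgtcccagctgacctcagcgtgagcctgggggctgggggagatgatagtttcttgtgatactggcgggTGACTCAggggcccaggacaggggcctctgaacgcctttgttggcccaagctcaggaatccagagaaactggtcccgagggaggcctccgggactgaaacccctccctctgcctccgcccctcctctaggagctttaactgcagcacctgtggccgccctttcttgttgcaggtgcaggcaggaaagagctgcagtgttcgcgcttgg
Krt5 promoter, chr15:101712856-101713155, minus strand: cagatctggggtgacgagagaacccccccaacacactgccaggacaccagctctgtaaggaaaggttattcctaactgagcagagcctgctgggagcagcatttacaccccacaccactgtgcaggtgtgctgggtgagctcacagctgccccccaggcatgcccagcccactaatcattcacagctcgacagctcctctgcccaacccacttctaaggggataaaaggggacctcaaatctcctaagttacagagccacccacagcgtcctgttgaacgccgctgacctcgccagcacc
Aqp3 promoter, chr4:41098134-41098433, minus strand: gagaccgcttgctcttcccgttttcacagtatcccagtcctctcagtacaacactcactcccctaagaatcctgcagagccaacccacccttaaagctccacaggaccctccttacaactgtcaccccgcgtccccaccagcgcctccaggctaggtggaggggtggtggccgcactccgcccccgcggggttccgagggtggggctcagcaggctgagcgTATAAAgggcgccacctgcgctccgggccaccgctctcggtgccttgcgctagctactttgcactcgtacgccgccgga
Jup promoter, chr11:100397741-100398040, minus strand: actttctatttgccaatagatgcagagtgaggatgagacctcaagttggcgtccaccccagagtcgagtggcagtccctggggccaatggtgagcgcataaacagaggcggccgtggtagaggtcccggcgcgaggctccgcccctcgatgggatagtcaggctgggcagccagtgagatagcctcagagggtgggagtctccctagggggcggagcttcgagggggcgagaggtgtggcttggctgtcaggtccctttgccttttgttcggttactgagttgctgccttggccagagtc

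The immobilized summit lay 165 bases before the start site of Sprr1a, 220 before that of Cldn4, 7 before that of Aqp3 and 21 after that of Krt5. In Sprr1a the 2 AP-1 matches began 146 and 116 bases before the start site and the TATA box 43 before it. In Cldn4 the 2 AP-1 matches began 240 and 158 bases before the start site, on either side of the summit. Aqp3 had a TATA box that began 29 bases before the start site and no AP-1 match, and Krt5 and Jup had neither of these motifs in the window. The AP-1 motif was found in 4 of the 19 members (Cldn4, Ivl, Sprr1a and Sprr1b), while 7.06% of 20085 protein-coding promoter windows held it. The letters of the TATA box were found in 7 of the 19, Sprr1a, Sprr1b, Ivl, Aqp3, Krt10, Krt8 and Col17a1, while 12.7% of all windows held them. The matches of Sprr1b, Ivl and Krt10 began 30, 29 and 26 bases before the start site. Those of Krt8 began 3 and 1 bases before it, and those of Col17a1 140 and 91. Ivl and Sprr1b carried both the AP-1 and the TATA motif and had no region in any library. The grainyhead-like motif AACNGGTT was in 1 member window, that of Sfn, and in 1.95% of all. The GC box GGGCGGG was in 3 member windows and in 34.5% of all. The C/EBP motif TTGCNNAA was in 2 and in 10.3% of all, and a loose form of the p53 and p63 motif was in those of 14 members and in 75.4% of all. All motifs were searched on both strands, and overlaps between matches of different motifs were allowed. A match describes the letters of the window and shows no bound factor.

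Basal keratins were seen in the immobilized library alone. Krt5 and Krt14 form the filament pair of basal keratinocytes, and Krt15 belongs to the same layer and to the hair follicle. Krt14 (chr11:100203162-100207510) had 3 regions in the immobilized library and 0 in each of the others, and Krt5 (chr15:101707069-101712905) and Krt15 had 1 each in the immobilized library and 0 elsewhere. These 5 regions ranked between 45.3% and 96.7% of the immobilized list. The best was chr11:100208272-100208772, 1012 bp beyond the gene end of Krt14.

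Among suprabasal and stress keratins, Krt10, a partner of Krt1 in the layers above the basal one, did not follow this pattern. Its single region, chr11:99385754-99386272, lay inside the gene, 750 bp from the end opposite the start site. No summit fell in or within 250 bp of the Krt10 promoter window in any library. The region ranked 13.8% in the immobilized, 13.1% in the non-immobilized and 12.1% in the day 0 library. Krt1 had 2, 1 and 0 regions in that order. The wound- and stress-induced keratins were called mainly in the immobilized library: Krt17 had 3 regions there and 0 in each other library, Krt16 had 1 and 0 in each other, and Krt6a had 1 in the immobilized, 1 in the non-immobilized and 0 at day 0. The region of Krt6a ranked 76.3% in the immobilized and 98.1% in the non-immobilized list. Krt6a and Krt6b are near-identical copies, so the gene a read came from is uncertain for both.

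Simple epithelial keratins, found in single-layered epithelia, had totals of 6 regions in the immobilized library, 5 in the non-immobilized library and 6 at day 0. Krt7 had 2, 2 and 4 regions in that order and was the only member with more regions at day 0 than in the immobilized library. Krt8 had 2 regions in each library, but not the same ones: 2 were called in both day 7 libraries and 2 at day 0 alone. The better of the day 7 regions, chr15:102005238-102005829, ranked 36.5% in the immobilized and 74.4% in the non-immobilized list. The day 0 regions, chr15:102010478-102010978 and chr15:102002816-102003316, ranked 32.4% and 80.5% at day 0. The first of these is a day 0 region alone only on the equal-length lists, since the whole immobilized list has a summit 388 bp from it. Krt18, which pairs with Krt8, had 1 region in each day 7 library and 0 at day 0, and Krt19 had 1 in the immobilized library alone. Unlike the basal keratins, these 4 genes had in sum as many regions at day 0 as in the immobilized library, though Krt18 and Krt19 had 0 at day 0. Of their regions, 5 were called in the immobilized library and not at day 0, 5 the reverse, and 1 in both.

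Desmosomal cadherins form the adhesive part of the junction. Their summed regions were 9 in the immobilized library, 1 in the non-immobilized library and 1 at day 0. Dsg3 and Dsc3, which are enriched in the lower epidermal layers, had 3 regions each in the immobilized library and 0 in both others. The region over the upper end of Dsc3, chr18:20002001-20002501, ranked 26.9%, the best of the 71 regions called in the immobilized library alone. Dsg2, a desmoglein found in many epithelia and in heart, had 2, 1 and 0 regions in the immobilized, non-immobilized and day 0 libraries. Its partner Dsc2 had 1, 0 and 1.

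Desmosomal plaque genes link the cadherins to keratin. Desmoplakin, encoded by Dsp, binds keratin filaments and had 8 regions in the immobilized, 3 in the non-immobilized and 2 in the day 0 library. Plakophilin 1, encoded by Pkp1 (chr1:135871394-135919207), had 10, 4 and 2 regions in that order, the largest count of any member. Its region at the upper gene end, chr1:135918978-135919504, ranked 35.7% in the immobilized and 54.8% in the non-immobilized list, and chr1:135868614-135869114, outside the lower end, ranked 40.8% in the immobilized list alone. Perp, a membrane protein of desmosomes that is induced by p53, had 7, 1 and 4.
At Perp the regions called in 1 library lay mostly on opposite sides of the gene. Its 6 immobilized-only regions ran from 1588 bp inside the gene's lower-coordinate end to 21242 bp beyond its upper end, whereas the 3 day 0-only regions lay 14558 to 28302 bp below the gene. Among the day 0 regions, chr10:18816519-18817019 and chr10:18830263-18830763 each ranked 73.0% at day 0. The region at the lower end, chr10:18844793-18845457, was called in all 3 libraries, with ranks of 21.3% in the immobilized, 23.5% in the non-immobilized and 83.1% in the day 0 list.
Plakoglobin, encoded by Jup, also serves in adherens junctions. It had 4 regions in each library, and the one at its start site, chr11:100397610-100398127, ranked 8.21% in the immobilized, 4.38% in the non-immobilized and 7.47% in the day 0 library. A second Jup region, chr11:100391037-100391635 inside the gene, ranked 44.0%, 28.9% and 20.3% in that order. Ppl and Evpl encode periplakin and envoplakin, plakins that also line the cornified envelope. Ppl had 4 regions in each library and Evpl 3, 2 and 2. The best of Ppl, chr16:5130708-5131261, ranked 27.0% in the immobilized, 31.1% in the non-immobilized and 19.6% in the day 0 list, close together. The region at the upper end of Evpl, chr11:116237769-116238425, stood further apart, with 25.3% in the immobilized and 93.6% in the non-immobilized list and no day 0 call. Pkp2, the plakophilin of heart desmosomes, had 2 regions in the immobilized, 3 in the non-immobilized and 2 in the day 0 library, and Pkp3 had 1, 1 and 0.

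**Figure D2:**
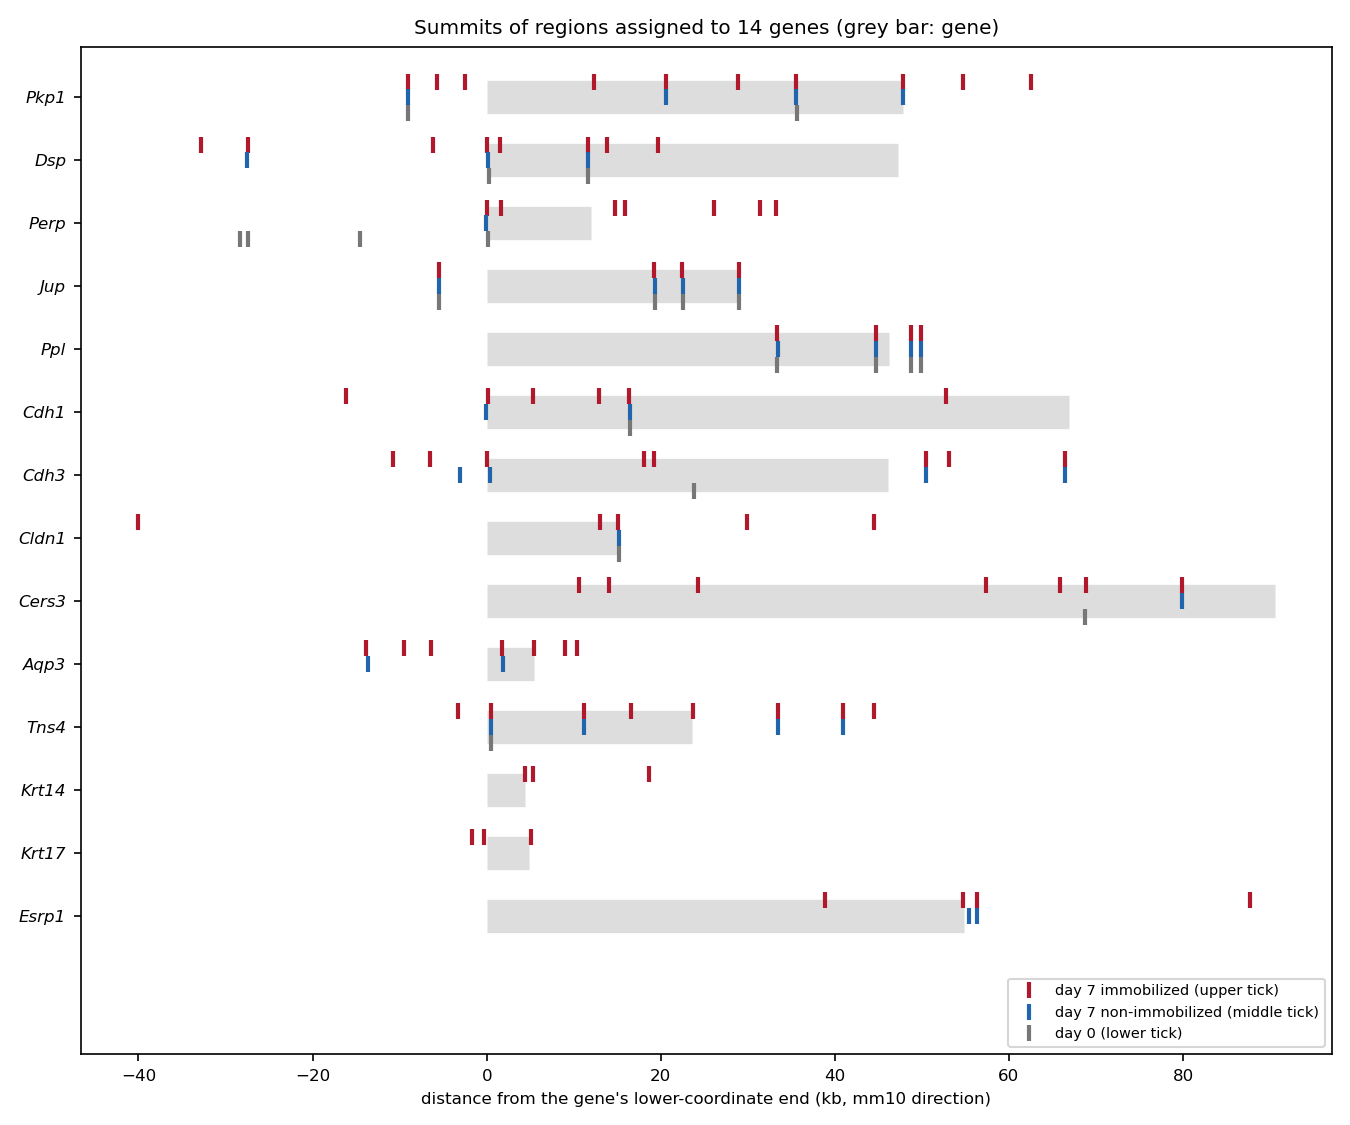
Positions of called summits (x axis, kb from the lower-coordinate end of the gene) in the day 7 immobilized (upper ticks), day 7 non-immobilized (middle) and day 0 (lower) libraries for 14 members, with the gene drawn as a grey bar. Pkp1, Dsp, Cdh3 and Aqp3 have most of their ticks in the immobilized row, Jup and Ppl have like rows in all 3 libraries, and Perp has 3 day 0 summits below the gene and most of its immobilized summits above it.

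The genes of adherens and tight junctions and of adhesion together had 32 regions in the immobilized library, 17 in the non-immobilized library and 8 at day 0. Cdh1 encodes E-cadherin, the main cadherin of epithelial adherens junctions, and had 6 regions in the immobilized, 2 in the non-immobilized and 1 in the day 0 library. Its region at the lower gene end, chr8:106603029-106603695, ranked 36.7% in the immobilized and 81.1% in the non-immobilized list and was not called at day 0. Cdh3, which encodes P-cadherin of the basal layer and neighbours Cdh1 on chromosome 8, had 8, 4 and 1.
Of the 12 best-ranked member regions absent from day 0, Cdh3 supplied 3. They were chr8:106510625-106511454 with ranks of 30.5% in the immobilized and 88.8% in the non-immobilized list, chr8:106561025-106561556 with 32.5% and 36.1% (the whole day 0 list has a summit 181 bp away), and chr8:106563715-106564215 with 35.3% in the immobilized list alone. One Cdh3 region, chr8:106534364-106534864, was called at day 0 alone, with a rank of 74.2%.
Cldn1 and Cldn4 encode claudins of tight junctions. Cldn1 had 5, 1 and 1 regions in the immobilized, non-immobilized and day 0 libraries, and Cldn4 had 4, 3 and 1. Col17a1, a collagen that anchors basal cells to the basement membrane, had 5, 4 and 2, and Epcam, an epithelial adhesion molecule, had 4, 3 and 2.

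Cornified envelope and barrier genes had 16 regions in the immobilized library, 5 in the non-immobilized library and 2 at day 0. Cers3, a ceramide synthase needed for the skin's lipid barrier, had 7, 1 and 1 in that order, all inside the gene. Aqp3, the water and glycerol channel of keratinocytes, had 7, 2 and 0. Its region chr4:41078648-41079317 ranked 22.3% in the immobilized and 85.5% in the non-immobilized list, and in the immobilized list it was the best-ranked of all member regions absent from day 0.
Sprr1a, which encodes a small proline-rich protein of the envelope, had 1 region in the immobilized library alone. St14 encodes matriptase, a membrane protease of the barrier, and had 1, 2 and 1 regions. One of these, chr9:31097687-31098187, was called in the non-immobilized library alone with a rank of 61.5%, and another, chr9:31082249-31082749, at day 0 alone with 67.9%. Both are one-library regions only on the equal-length lists, since the whole immobilized list has summits 25 and 74 bp from them. Tgm1, the transglutaminase that crosslinks the envelope, Ivl, which encodes involucrin, and Sprr1b had none.

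The remaining members had 14 regions in the immobilized library, 7 in the non-immobilized library and 2 at day 0. Tns4, a tensin family gene of epithelial adhesion sites, had 8, 4 and 1 in that order. Esrp1, an epithelial splicing regulator, had 4, 2 and 0. Around its upper end, chr4:11388040-11388550 ranked 35.3% in the immobilized and 84.9% in the non-immobilized list, chr4:11386437-11386937 ranked 36.5% in the immobilized list alone, and chr4:11387129-11387629 ranked 61.7% in the non-immobilized list alone. The day 7 libraries thus had summits at neighbouring positions there. Sfn, which encodes stratifin, had 2, 1 and 1. The Sfn region chr4:133599634-133600175 was called in all 3 libraries, with ranks of 10.99% in the immobilized, 3.98% in the non-immobilized and 2.73% in the day 0 library, and that day 0 rank was the best of any member region in any library. The next nearest gene, Zdhhc18, had its end 4670 bp away from it.

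The labels of the day 7 libraries differ in immobilization. With 1 library each, this cannot be told apart from other differences between them. Of the member regions called in only 1 of them, 75 were in the immobilized library and 6 in the non-immobilized library, and 54 were in both. The immobilized share was 92.6% (interval 84.6 to 97.2), against 51.7% of one-library regions near all genes. By gene, 27 of the 37 members with a region had more in the immobilized library and 2 (Pkp2 and St14) more in the non-immobilized, with 8 equal. With lists as deposited, of which the immobilized was the longest, 0 had more in the non-immobilized. On the equal-length lists, 24.5% of all genes had more in the immobilized and 22.5% more in the non-immobilized. A lead of 3 or more regions was held by 13 members in the immobilized library, against 2.44% of genes, and by 0 in the non-immobilized library, against 1.92%. Since a gene of many regions has more chances to differ, the 22 members with 3 or more regions were also counted: 18 had more in the immobilized library, against 36.8% of such genes, and 1 had more in the non-immobilized, against 34.9%.

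The immobilized library against day 0 gave a like result. It held 100 of the one-library regions, against 11 at day 0, with 29 in both, a share of 90.1% (interval 83.0 to 94.9) beside 53.4% near all genes. More regions were called in the immobilized library for 29 members and at day 0 for 1, Krt7. With lists as deposited, of which the immobilized was the longest, day 0 had more for 0 members. On the equal-length lists, the shares of all genes were 27.3% and 23.1%. The lead was 3 or more for 16 members in the immobilized library and for 0 at day 0, against 3.83% and 2.45% of genes. Of the 23 members with 3 or more regions, 18 had more in the immobilized library and 1 more at day 0, against 40% and 35.2% of such genes.

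Between the non-immobilized library and day 0 the share lay nearer to that of all genes. Here 33 one-library regions were in the non-immobilized library and 13 at day 0, with 27 in both, and the share of 71.7% had an interval of 56.5 to 84.0 beside 51.9% near all genes. More regions were called in the non-immobilized library for 17 of 28 members and at day 0 for 3, against 26.1% and 24.3% of all genes. A lead of 3 or more was held by 2 members in the non-immobilized library and by 1 at day 0, Perp, against 3.36% and 2.56% of genes. Of the 15 members with 3 or more regions, 9 had more in the non-immobilized library and 2 more at day 0, against 38.8% and 37% of such genes. Among the 23956 best summits of each list 8 one-library regions were in the non-immobilized library and 6 at day 0, or 57.1% (interval 28.9 to 82.3). The comparisons share libraries and are not independent of each other.

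**Figure D3:**
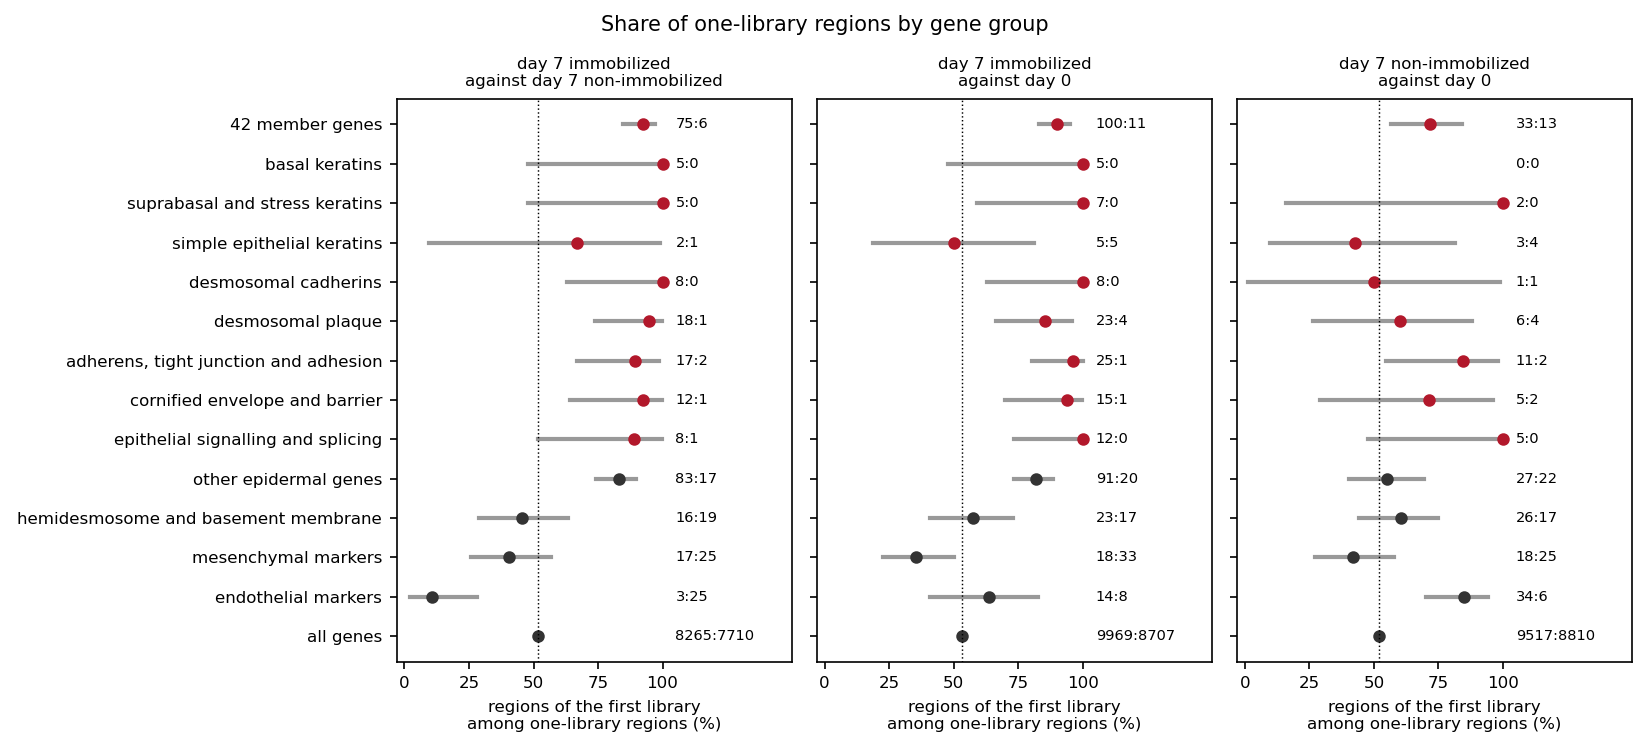
Share of one-library regions called in the first-named library of each pair (x axis, percent; points with exact 95% binomial intervals) for the 42 members, their roles and other gene lists; numbers at the right give regions only in the first and only in the second library, and the dotted line is the share over all genes. The members stand at 92.6%, 90.1% and 71.7% in the 3 pairs, and the mesenchymal markers lie on the other side of the line in the pair of day 7 libraries.

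Regions within 1 kb of either gene end were called for 29 members in the immobilized library, 18 in the non-immobilized and 10 at day 0, against 72.4%, 72.6% and 70.9% of genes with a region. Either end of a gene counts here: of 12 such regions in 11 members whose strand the promoter table gives, 10 lay at the start and 2, those of Krt10 and Sfn called in all 3 libraries, at the other end. A region of this kind was in the immobilized library and not in the non-immobilized for 11 of the 37 members with a region, against 3.03% of genes, and the reverse held for 0, against 3.24%. Set against day 0, the immobilized library had one for 19 members that lacked it at day 0, against 4.36% of genes, and the reverse held for 0, against 2.87%. The non-immobilized library had one for 9 members that lacked it at day 0, against 4.2% of genes, and for 1 member, Dsc2, the reverse held, against 2.49%. In the immobilized library and neither other it was present for 10 members, against 2.08% of genes. In all 3 libraries it was present for 9 members, whereas 67.2% of genes with a region had one in all 3. Of the 71 regions in the immobilized library alone, 15 lay near a gene end, or 21.1% (interval 12.3 to 32.4), beside 10.2% of such regions near all genes. Of all 144 member regions, 59 had their summit inside the gene, a count that was not made for all regions.

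Ranks placed most of these regions in the weaker part of the list. The 71 regions called in the immobilized library alone had a median rank of 67.8%, better than the 78.6% of all regions called in it alone, and 17 of them, or 23.9%, were in the better 50% of the list, beside 10.9% for all. The 29 regions called in both day 7 libraries had a median rank of 51.0% in the immobilized and 79.4% in the non-immobilized list. In 25 of the 29, or 86.2% (interval 68.3 to 96.1), the better rank was in the immobilized list, whereas for all 4265 regions of that kind it was in 42.3%. Regions shared by the day 7 libraries alone thus mostly stood higher in the immobilized list. The 25 regions called in all 3 libraries had medians of 36.9% in the immobilized, 39.1% in the non-immobilized and 43.1% in the day 0 list, and 12 of them ranked better in the immobilized than in the non-immobilized list.

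**Figure D4:**
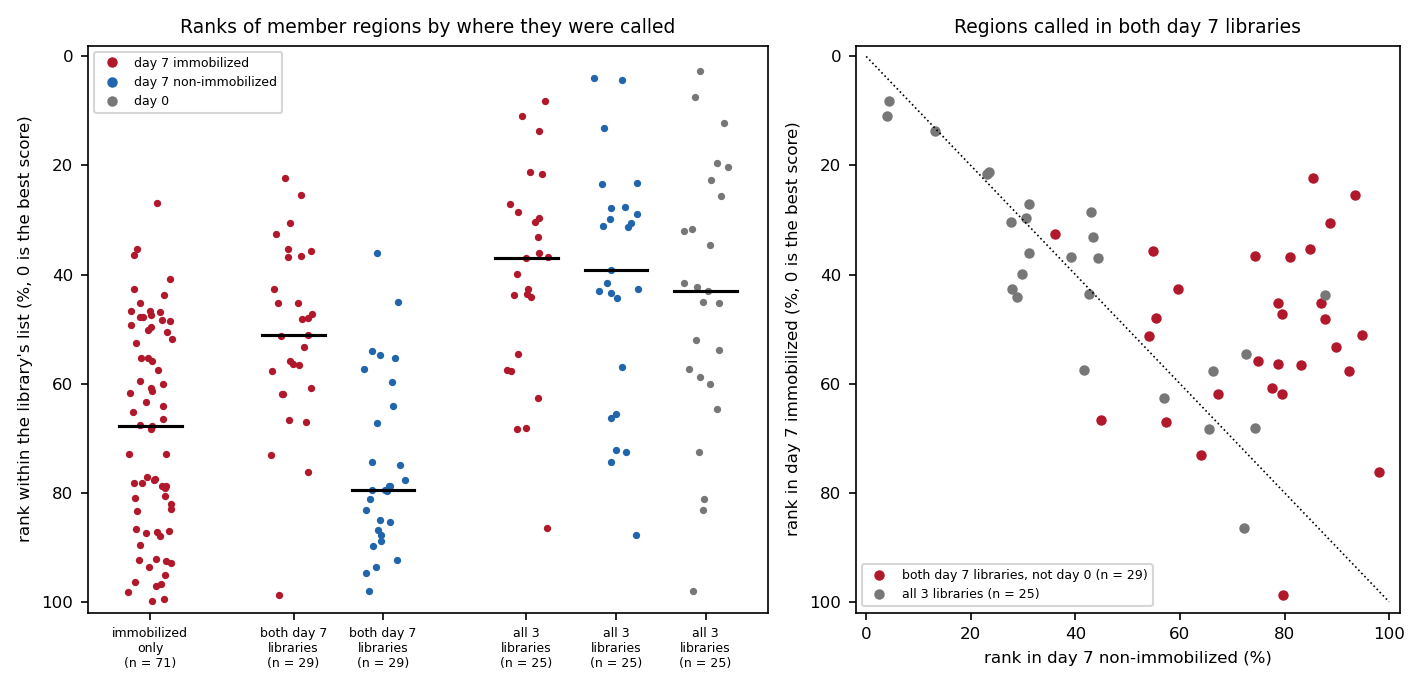
Left, rank within each library's own list (percent, 0% best, drawn at the top) of the member regions, grouped by the libraries that called them and coloured by the library of the rank, with medians as bars; right, rank in the immobilized against rank in the non-immobilized list for member regions of both day 7 libraries, with equal rank as a dotted line. Of the 29 regions in both day 7 libraries and not at day 0, 25 lie on the side of the better immobilized rank, and of the 25 regions in all 3 libraries 12 do.

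Distances from these regions to the nearest summit of the other libraries were taken from the whole deposited lists, for member regions only. The same counts were not made for all regions, so they do not set the members apart from other genes. The non-immobilized list was used whole and near summits were merged. By construction, then, no region called in the immobilized library alone could have a non-immobilized summit within 500 bp. Of these 71 regions, 38 had no non-immobilized summit within 10 kb. In the whole deposited day 0 list, 1 of the 71 had a summit within 500 bp and 49 had none within 10 kb. Of the 29 regions called in both day 7 libraries, 2 had a deposited day 0 summit within 500 bp and 21 had none within 10 kb. Of the 9 called at day 0 alone, 2 had a deposited immobilized summit within 500 bp. Of the 4 called in the non-immobilized library alone, also 2 did. These 4 lay near Cdh3, Col17a1, Esrp1 and St14. The day 0 regions lay near Perp (3), Krt7 (2), Krt8 (2), Cdh3 (1) and St14 (1). The farthest member region inside the distance limit was a Cldn1 region at 40.1 kb, and the nearest beyond it were 2 Epcam regions at 64.2 and 65.8 kb.

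Gene clusters that hold the members were also counted whole. The type I keratin cluster (chr11:99232761-100269951) had 22 regions in the immobilized library, 5 in the non-immobilized and 4 at day 0, and the epidermal differentiation complex (chr3:92080271-93293689), which holds Ivl and the Sprr genes, had 13, 1 and 2. The desmosomal cadherin cluster (chr18:19960930-20604526) had 13, 1 and 1. The type II keratin cluster (chr15:101348315-102032026) was less uneven, with 31 regions in the immobilized, 21 in the non-immobilized and 24 in the day 0 library. In that cluster 8 regions were called in the immobilized library alone and 7 at day 0 alone. Across all chromosomes the numbers were 47105, 46061 and 46531.

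Other epidermal genes, a list of 57 that holds envelope proteins, lipid enzymes, claudins, connexins and epithelial transcription factors, had 146 regions in the immobilized library, 80 in the non-immobilized and 75 at day 0. Of their one-library regions, 83 were in the immobilized and 17 in the non-immobilized library, a share of 83.0% (interval 74.2 to 89.8), against 51.7% near all genes. More regions were called in the immobilized library for 35 genes and in the non-immobilized for 2, against 24.5% and 22.5% of all genes. Between the non-immobilized library and day 0, 27 one-library regions were in the former and 22 in the latter. That share was 55.1% (interval 40.2 to 69.3), beside 51.9% near all genes. The 4 largest differences between the day 7 libraries began with Grhl3, an epidermal transcription factor, with 8, 1 and 1 regions in the immobilized, non-immobilized and day 0 libraries. The others were Ehf with 5, 0 and 0, Tgm3 with 4, 0 and 0, and Tfap2a with 7, 3 and 2. Against day 0, Egfr went the other way, with 7, 6 and 11 regions in that order. The 14 genes of the hemidesmosome and the basement membrane had 66 regions in the immobilized, 69 in the non-immobilized and 60 in the day 0 library, and 16 of their one-library regions were in the immobilized and 19 in the non-immobilized library.

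Markers of other cells were counted in the same libraries. Endothelial markers had 27 regions in the immobilized, 49 in the non-immobilized and 21 in the day 0 library. All 8 had a region in both day 7 libraries, as 94.6% and 93.6% of genes with a region had in the immobilized and non-immobilized library. Of their one-library regions between the day 7 libraries, 3 were in the immobilized and 25 in the non-immobilized library. The immobilized share was 10.7% (interval 2.27 to 28.2), against 51.7% near all genes. Melanocyte markers had 15, 12 and 14, with Tyr at 0 in every library, and hair follicle and sebaceous markers had 25, 20 and 17. Myeloid markers had 6, 7 and 4, with Adgre1, Itgam, Lyz2 and Ly6c2 at 0 in every library. In bulk libraries, more cells of a type and more open chromatin per cell cannot be told apart. Whether the regions near keratin and desmosome genes came from epithelial cells among the collected cells was not tested.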

How the data were processed

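Peak summits were read from 3 deposited lists, 1 per library, and grouped by the sample labels. The library protocol was Omni-ATAC, per the labels. The processing notes of the submitters name MACS2 2.1.2, Bowtie2 2.3.4.1, bedtools 2.28.0, SAMtools 1.2, edgeR 3.26.5 and the mm10 build. Shifting of reads for the transposase and the peak threshold are not stated there. Each deposited summit carries a score, taken to be −log10 of either a p-value or a q-value because MACS2 writes its lists so. It was used for ranks within its own list, and in 1 alternative as a limit common to the lists. Peaks were called per library, as the deposited lists show. The authors' run statistics give read pairs as counts, per the file headers, duplicates as a fraction (43.4% in the immobilized, 42.0% in the non-immobilized and 60.2% in the day 0 library) and alignment as a percent (92.5%, 89.9% and 90.9%).

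The lists cover chromosomes 1 to 19. Lists were reduced by score to 47912 summits, the length of the shortest, which left a lowest score of 6.61 in the immobilized, 1.33 in the non-immobilized and 4.00 in the day 0 library. Overlapping or adjoining windows were merged, and a region was assigned by its best-ranked summit to the protein-coding gene whose end lay nearest, within 50 kb, in a RefSeq gene table of GRCm38.p6, the assembly of mm10, which gives no strand. A region absent from a list had no summit that passed; this does not show closed chromatin. Promoter sequences matched 19 of the 42 members by gene ID. Positions count from 1. Region counts were set beside the same over all genes. Members, lists and settings were chosen with earlier results of these data known. By rule, every member is named, and members with 3 or more regions in only one library of a pair are given in full. Of the member regions, the 12 best-ranked absent from day 0 and the 6 best-ranked in all 3 libraries are given with coordinates. So are the 8 best-ranked called only in the non-immobilized or only in the day 0 library. The alternatives were other list lengths, score limits, widths and distances, and leaving genes out. Region building was tested on simulated data. Software was Python 3.11.15 with pandas 2.3.3, numpy 2.4.6, matplotlib 3.10.9 and scipy 1.17.1.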

Additional observations from a re-analysis of the deposited data

Results flagged for a closer look

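Perp had 3 more regions in the immobilized library than at day 0, and in the non-immobilized library its difference from day 0 was -3. The 2 differences have opposite signs with 1 library each, and the difference between them was not tested.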

How the results depend on the processing

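With 11 alternatives, 12 results gave 132 values, of which 109 stayed within the interval of the reported share or within 1.5 times the reported count, 23 moved further and 0 reversed. The immobilized share against the non-immobilized library (92.6%) was 97.7% both with lists as deposited and above a common score of 1.78, where the share over all genes was 80.6%, and 89.0% to 93.9% otherwise. The immobilized share against day 0 ran from 86.0% to 93.6%. The 93.6% came with lists as deposited and above the common score, where the share over all genes was 73.1% and 73.2%. The non-immobilized share against day 0 ran from 57.1% to 76.9%, and with the 23956 best summits of each list (57.1%) its interval, 28.9 to 82.3, held the share near all genes under that setting, 52.1%. An alternative left out all keratin, Sprr and Dsg genes. Of these, Krt6a and Krt6b are near-identical copies, which leaves the placement of their reads uncertain. With this set left out, 17 members had more regions in the immobilized than in the non-immobilized library (27 with all members). Against day 0, the immobilized count was the higher for 17 members (29) and the day 0 count for 0 (1). With the 23956 best summits of each list, the member regions were 49 in the immobilized, 20 in the non-immobilized and 18 in the day 0 library, 17 members had more in the immobilized library than at day 0 and 2 the reverse, 5 had more in the non-immobilized library than at day 0 (17), and 1 had more in the non-immobilized than in the immobilized library (2). With gene ends within 10 kb, the regions were 78, 39 and 25 in the same order, 1 member had more in the non-immobilized than in the immobilized library and 2 had more at day 0 than in the immobilized library. With lists as deposited and above a common score, 0 members had more in the non-immobilized and 0 more at day 0 than in the immobilized library. The deposited immobilized list is the longest, with 67404 summits. With summits widened by 100 bp, and with regions over 1 kb from a gene end alone, 2 members had more at day 0 than in the immobilized library. Member counts under the alternatives were not set beside those of all genes. Fewer summits or genes enter the shorter lists, distances and gene sets by construction; the cause was otherwise not tested. The nearest transcription start was not run, because the promoter sequences used here give a start for 19 of the 42 members. No paired analysis was possible because each group has 1 library and the labels give no replicate numbers. One library per group, peak calls in place of read counts, and an unstated score type limit every comparison.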
